A study of Mus musculus with 14 samples.

Results

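Gene expression in hematopoietic stem cells (HSC) of p53+/m mice was compared with that in HSC of p53+/- mice at 12 mo of age, with 2 arrays (A and B) for each genotype, 4 of the 14 arrays in the series. All 4 arrays named by their titles for these genotypes were used, and no other array entered the difference itself. The p53+/- mice carry 1 functional copy of the Trp53 gene, and the p53+/m mice carry 1 wild-type copy and 1 m allele, which encodes a truncated p53. Both lines are on the C57Bl/6 background, backcrossed for at least 4 generations, and the labels give male mice. The titles and the treatment field give an age of 12 mo, while the strain field of the same labels gives 2 mo, and the age of 12 mo was taken. The cells were sorted from bone marrow as Hoechst-effluxing side population cells that were c-Kit-positive, Sca-1-positive and lineage-negative, from pools of 2 to 5 mice, and their RNA was amplified through repeated in vitro transcription before hybridization to Affymetrix MOE430A arrays. The other HSC arrays, from wild-type (WT) mice of 2, 6, 12 and 21 mo, helped to estimate the spread between replicates and give the level of each gene in WT cells.

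The p53 protein is a transcription factor that is held at a low level by the ubiquitin ligase Mdm2 and becomes stable when DNA is damaged or the cell is otherwise stressed. It then switches on genes that halt the cell cycle, such as Cdkn1a, that repair DNA, or that start cell death, such as Bbc3 and Pmaip1. In HSC, p53 is known to restrain entry into the cell cycle and to limit the pool after genotoxic stress. Mice with the m allele have been described as having a stronger p53 response and early signs of ageing, so that these genotypes represent more and less p53 activity than WT. A p53+/m against p53+/- difference does not show which of the genotypes departs from WT, and WT levels are therefore given beside the leading genes. No probe set carried the symbol Trp53 in the probe table used, so the transcript of the altered gene was not analysed here and the genotypes could not be checked from it.

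The 4 arrays resembled each other in overall signal. Medians over probe sets were between log2 3.95 and 4.05, and 42.7% to 43.1% of probe sets reached log2 5. Of 29 measured HSC markers, 23 or 24 reached log2 5 on each array, among them Procr at 13.43 to 13.72 and Hoxa9 at 13.31 to 13.66, whereas Mecom and Angpt1 remained under log2 4. The Y-linked Eif2s3y lay between 11.52 and 11.87 and Xist near log2 3 on all 4 arrays. A control probe set for the 5′ end of 18S ribosomal RNA, which reads the part of ribosomal RNA left in the sample, gave 8.92 and 7.96 on the p53+/- arrays and 5.71 and 7.18 on the p53+/m arrays. The signal of the actin control at its 3′ end minus that at its 5′ end, which grows as transcripts are shortened, was 2.73 and 3.07 against 4.07 and 3.56. Both measures thus separated the genotypes without overlap, and so did the middle control of 18S (6.95 and 6.98 against 6.62 and 6.59). The 3′ control of 18S (8.47 and 7.51 against 8.28 and 8.73) and the 3′ minus 5′ measure for Gapdh overlapped. The part of all these measures in the differences below was not tested. In a principal component analysis of the 12 HSC arrays, a component with 15.1% of the variance set the 4 p53 arrays apart from WT. The p53 arrays lay between -43.4 and -25.6 on it and the 8 WT arrays between 7.94 and 24.1. The cause of this shared difference, and its part in the comparisons with WT below, was not tested. The component with 11.1% of the variance placed the p53+/- arrays at 30.7 and 41.8 and the p53+/m arrays at -18.4 and -27.2.

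Of 22626 probe sets, 19 were higher in p53+/m HSC (0.0840%) and 25 were lower (0.110%) by limma at an adjusted p under 0.05 and at least a 2-fold difference. At an unadjusted p of 0.05 with a 2-fold difference the corresponding counts were 385 and 401. The higher probe sets differed by 2.16- to 19.3-fold and the lower ones by 2.04- to 8.55-fold, and none of the 44 had overlapping values between the genotypes. For 11 of the 19 higher probe sets both p53+/m arrays but not both p53+/- arrays lay outside the range of the 8 WT HSC arrays. For 4 only p53+/- was outside in this way, for 3 both genotypes were and for 1 neither was. The corresponding numbers among the 25 lower probe sets were 14, 5, 5 and 1. Among all probe sets, 8.55% had both p53+/m arrays outside the WT range and 7.69% had both p53+/- arrays outside it. The 44 were called for a gap between the genotypes, which itself favours values outside the WT range. Their numbers are thus descriptive and no test against these shares. The number of calls depended strongly on the arrays in the fit. Leaving out p53+/- A gave 31 higher and 47 lower probe sets, leaving out p53+/- B gave 11 and 47, leaving out p53+/m A gave 51 and 22, and leaving out p53+/m B gave 35 and 25. The arrays of the WT 12 mo pair differed from each other more than those of any other pair. The SD of their A minus B over probe sets was 0.815. Without this pair the counts were 81 and 103. A fit of the 4 p53 arrays alone called none by limma (423 and 427 at an unadjusted p of 0.05 with a 2-fold difference).

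**Figure D1:**
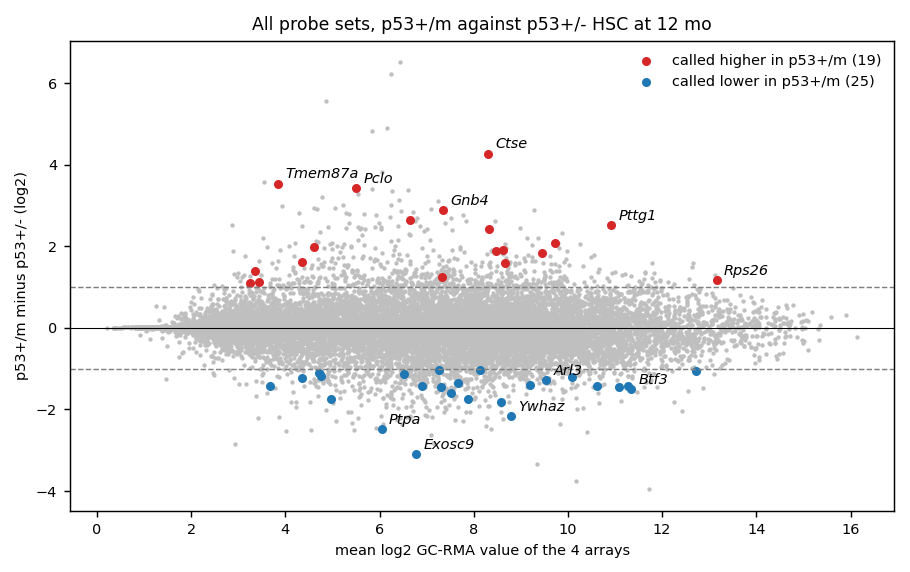
Difference between genotypes (p53+/m minus p53+/-, log2, vertical axis) against the mean log2 GC-RMA value of the 4 arrays (horizontal axis) for 22626 probe sets in grey. The 19 probe sets that were higher in p53+/m HSC are red and the 25 that were lower are blue, and dashed lines mark a 2-fold difference; many uncalled probe sets lie beyond these lines.

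Each leading gene below was also tested under 13 other settings, of which 4 each left out 1 of the p53 arrays, and the number of settings in which it passed is given. These settings share arrays and are not independent of each other.

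The largest difference was that of Ctse, which encodes cathepsin E, an aspartic protease of the endosomal compartment. Ctse was measured at log2 6.55 and 5.80 on the p53+/- arrays and at 10.41 and 10.48 on the p53+/m arrays. It was thus 19.3-fold higher in p53+/m HSC (log2 difference 4.27, SE 0.22, adjusted p = 0.00258 by limma), and it passed in 10 of the 13 other settings, including all 4 that left out an array. The 8 WT HSC arrays lay within a narrow band of 11.01 to 11.33, above all 4 p53 arrays, so that Ctse was far below WT in p53+/- HSC and less so in p53+/m HSC. Ctse read 13.19 and 13.26 in WT whole bone marrow (WBM), above every HSC array, and the part of mature cells in its difference was not tested.

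Several of the higher genes encode signalling and adaptor proteins. Gnb4, a beta subunit of heterotrimeric G proteins, was at 5.99 and 5.84 in p53+/- HSC and at 9.19 and 8.41 in p53+/m HSC. The rise of 7.38-fold (log2 difference 2.88, SE 0.28, adjusted p = 0.0188 by limma) passed in 8 of 13 settings and in all 4 with an array left out, and both p53+/m arrays were above the WT range of 5.25 to 6.57. A brighter probe set for Gnb4 read 9.47 and 8.84 against 10.44 and 9.98, a difference of 1.05 in the same direction that did not pass (adjusted p = 0.221 by limma).

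Prkab1, the beta 1 subunit of the energy sensor AMPK and a gene known to respond to p53, measured 7.17 and 7.02 in p53+/- HSC and 9.46 and 9.61 in p53+/m HSC. Its 5.42-fold difference (log2 2.44, SE 0.30, adjusted p = 0.0349 by limma) placed p53+/m above and p53+/- below the WT range of 7.27 to 8.76, but it passed in only 3 of 13 settings and in none of the 4 with an array left out. Arap3, a GTPase-activating protein downstream of phosphoinositide 3-kinase, was dimmer, at 3.38 and 3.87 against 5.73 and 5.49. Here the p53+/m arrays were within the WT range of 5.0 to 6.33 and the p53+/- arrays below it (log2 difference 1.98, SE 0.17, adjusted p = 0.0138 by limma), and the call held in 9 of 13 settings and all 4 with an array left out.

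Pttg1, or securin, which holds back the separation of sister chromatids, gave 10.05 and 9.26 in p53+/- HSC and 12.19 and 12.15 in p53+/m HSC. The WT range of 11.04 to 11.78 fell between the genotypes, and the 5.73-fold difference (log2 2.52, SE 0.29, adjusted p = 0.0300 by limma) passed in 5 of 13 settings. Its other probe sets differed by 2.56 and 2.37 on the log2 scale in the same direction without passing. S100a6, a small calcium-binding protein, was at 7.86 and 7.47 against 9.29 and 9.85. Both p53+/- arrays lay below the WT range of 8.12 to 10.41 and the p53+/m arrays within it (3.75-fold, adjusted p = 0.0491 by limma, passing in 3 of 13 settings). WBM read higher than any HSC array for S100a6 (12.35 and 12.41), as it did for Arap3 (7.94 and 8.11).

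Among higher genes whose products act on RNA or DNA, Trmt10a, a tRNA methyltransferase, was at 7.56 and 7.51 in p53+/- HSC and at 9.16 and 9.66 in p53+/m HSC. Zfp24, a zinc finger transcription factor, was at 4.93 and 5.74 against 8.02 and 7.93. Purb, a protein that binds single-stranded DNA and RNA, was at 8.61 and 8.74 against 10.57 and 10.96. All 3 were separated by genotype, with log2 differences of 1.88, 2.65 and 2.09 and adjusted p-values of 0.0300, 0.0349 and 0.0362 by limma. Trmt10a and Zfp24 exceeded the WT maxima of 8.51 and 7.41, whereas p53+/m A for Purb was under the WT maximum of 10.91. Trmt10a passed in 6, Zfp24 in 5 and Purb in 4 of 13 settings, and further probe sets for Zfp24 and Purb differed by -0.56 and -0.18 on the log2 scale, in the other direction.

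Tmem87a, a membrane protein of the Golgi, and Pclo, a presynaptic scaffold protein, were at low levels. Tmem87a was at the bottom of the scale in p53+/- HSC, at 2.06 and 2.09, and at 6.10 and 5.13 in p53+/m HSC. Pclo was at 3.67 and 3.92 against 7.49 and 6.95. Their adjusted p-values were 0.0422 and 0.0491 by limma, Tmem87a passed in 5 and Pclo in 4 of 13 settings, and with an array left out Tmem87a passed once and Pclo never.

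The lower genes were led by Exosc9, a subunit of the RNA exosome, which trims and degrades RNA. Exosc9 was at 7.92 and 8.72 in p53+/- HSC and at 5.17 and 5.28 in p53+/m HSC, against 7.90 to 8.59 in WT HSC. It was 8.55-fold lower in p53+/m HSC (log2 difference -3.10, SE 0.30, adjusted p = 0.0188 by limma), passed in 8 of 13 settings and in all 4 with an array left out, and stood apart from WT in p53+/m HSC. Of 75 measured genes for RNA processing, Exosc9 and the splicing factor Prpf6 were lower and none was higher by limma. At an unadjusted p of 0.05 with a 2-fold difference, 1 was higher and 3 were lower. The median difference over the 75 genes was -0.01, next to 0.01 over all 12393 genes. At the level of 1 probe set per gene, 0.0888% of genes were higher and 0.121% lower. Prpf6 measured 11.87 and 11.76 against 10.37 and 10.37, with p53+/- above the WT range of 10.17 to 11.35, and it passed in 2 of 13 settings. Another probe set for Prpf6 of similar brightness differed by -0.41. Hnrnpr, which binds nascent transcripts, was lower at 1 probe set (11.91 and 12.05 against 10.73 and 10.38, adjusted p = 0.0422 by limma), while 2 others differed by -1.33 and 0.22 on the log2 scale.

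Several lower genes encode regulators of signalling proteins. Ptpa, an activator of protein phosphatase 2A, was at 7.38 and 7.20 in p53+/- HSC and at 4.79 and 4.81 in p53+/m HSC. The p53+/m arrays were below the WT range of 5.70 to 7.39 (5.62-fold lower, log2 difference -2.49, SE 0.22, adjusted p = 0.0138 by limma), and the call passed in 9 of 13 settings and in all 4 with an array left out. A brighter probe set for Ptpa differed by only -0.03, however, so the 2 probe sets disagreed.

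Ywhaz, the zeta form of the 14-3-3 adaptors, which bind phosphorylated proteins, was at 10.17 and 9.57 against 7.60 and 7.82. Both p53+/m arrays were below the WT range of 8.97 to 10.59 (4.47-fold lower, adjusted p = 0.0270 by limma), and the call passed in 7 of 13 settings. Of 6 other probe sets for Ywhaz, 5 were lower in p53+/m HSC and 1 was higher, by 1.18. Sdc1, a heparan sulfate proteoglycan of the cell surface, was at 5.67 and 6.02 against 4.19 and 4.01, below the WT range of 5.24 to 7.01 (adjusted p = 0.0243 by limma, 7 of 13 settings), at this probe set only. Further probe sets for Sdc1 of similar brightness differed by -0.21 and 0.23, so that a fall of the gene was not borne out by them.

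A further set of lower genes acts in protein synthesis, protein modification and mitochondria. Naa15, the ribosome-anchoring subunit of an N-terminal acetyltransferase, was at 7.84 and 8.23 in p53+/- HSC and at 6.60 and 6.54 in p53+/m HSC. Elp3, the catalytic subunit of Elongator, which modifies tRNA, was at 8.84 and 8.66 against 6.85 and 7.15. Mettl9, a protein histidine methyltransferase, was at 11.12 and 11.54 against 9.88 and 9.92. These 3 passed in 8, 9 and 9 of 13 settings and in all 4 with an array left out, with log2 differences of -1.46, -1.75 and -1.43 and adjusted p-values of 0.0138, 0.0129 and 0.0164 by limma. Relative to WT, Naa15 was below the range of 7.83 to 9.0 in p53+/m HSC and inside it in p53+/- HSC, whereas Elp3 and Mettl9 were above the WT range in p53+/- HSC and below it in p53+/m HSC. A further probe set differed by -1.57 for Elp3 and by -1.04 for Mettl9, whereas the brighter probe sets for Naa15 differed by only -0.61 and by 0.32.

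Btf3, which shields nascent polypeptides at the ribosome, was at 12.00 and 12.20 against 10.50 and 10.69 (adjusted p = 0.0358 by limma, 4 of 13 settings), while its other probe sets differed by -0.43 and 0.04. Tspo, a protein of the outer mitochondrial membrane, was lower at 2 probe sets, the brighter at 9.62 and 9.33 against 7.59 and 7.73, with p53+/m below the WT range of 8.73 to 9.97 in that probe set, while the brightest probe set for Tspo differed by -0.64 and was not called. Its calls passed in 3 and 2 of 13 settings, and neither Btf3 nor Tspo passed with any array left out. Probe sets whose names end in x, whose probes can also bind other transcripts, made up 9 of the 25 lower calls and 1 of the 19 higher calls, and those of Tspo, Elp3, Sdc1, Prpf6, Mettl9 and Hnrnpr are of this kind. Such probe sets are 6.68% of the array, and of those that reached log2 5 on average 59.6% were lower in p53+/m HSC, compared with 49.4% of gene-specific ones.

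The remaining calls with a single gene name differed by less or were dimmer. Rps26, Trappc4, Asah2, Lasp1 and Zfp991 were higher, and Selenon, Ube2r2, Pcdh7, Sec24d, Pnrc2, Psg23, Taf4, Fam220a, H2az1, Gmppb and Mtfr1 were lower. For 8 of the 17 higher calls another probe set of the gene averaged at least log2 5, and of 14 such probe sets 4 differed in the same direction. The 24 lower calls belong to 23 genes, and for 12 of these there were 20 such probe sets beyond the called ones, of which 16 differed in the same direction. A called probe set is thus a measurement of that probe set, and of the gene only where others followed it.

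**Figure D2:**
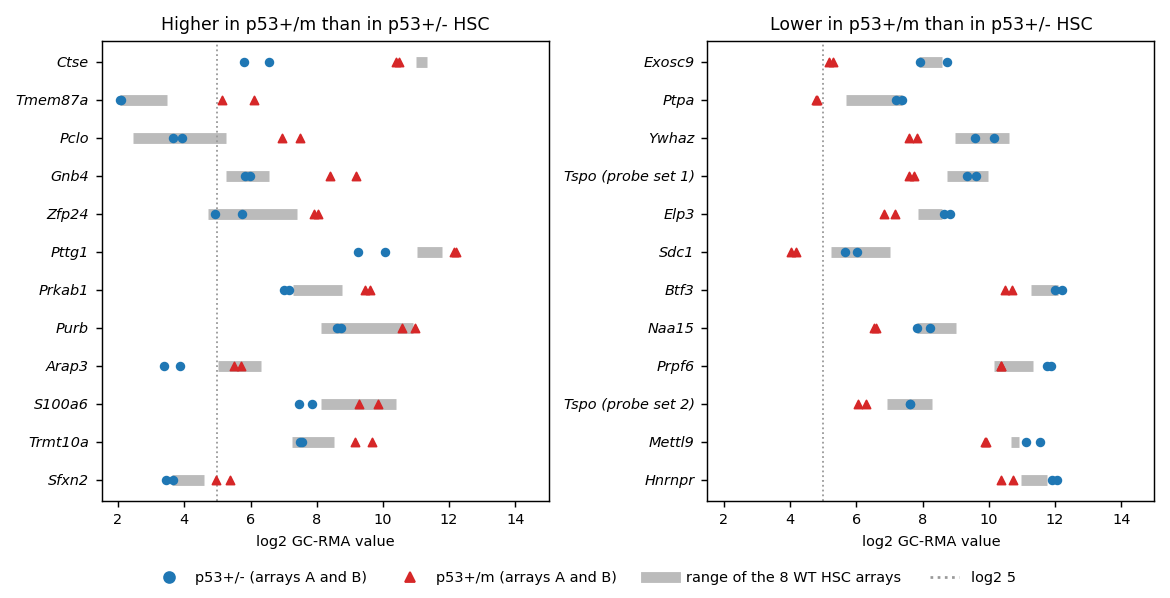
Log2 GC-RMA values of the 12 largest higher (left) and 12 largest lower (right) probe sets. Blue circles are the p53+/- arrays, red triangles the p53+/m arrays, grey bars the range of the 8 WT HSC arrays, and the dotted line marks log2 5; for Ctse the grey bar lies above all 4 symbols, and for Exosc9 it lies with the p53+/- arrays.

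One neighbouring pair of genes was called in opposite directions, and it was singled out after its values were seen. Arl3, a small GTPase of the cilium that releases lipid-modified cargo proteins, had close replicates. It was at 10.18 and 10.19 in p53+/- HSC and at 8.90 and 8.91 in p53+/m HSC, above and below the WT range of 9.18 to 10.09. The 2.43-fold difference (log2 -1.28, SE 0.09, adjusted p = 0.0102 by limma) passed in 9 of 13 settings and in all 4 with an array left out. Sfxn2, a sideroflexin of the inner mitochondrial membrane, starts next to Arl3 on the other strand. Its called probe set was near the lower end of the scale, at 3.65 and 3.44 against 4.97 and 5.38 (log2 difference 1.63, SE 0.21, adjusted p = 0.0387 by limma). A brighter probe set for Sfxn2 went the other way, at 7.39 and 6.80 against 5.78 and 5.69 (-1.36, which did not pass), so that no direction can be given for this gene.

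The 182 bases between the starts of Arl3 and Sfxn2 are shown because both genes are read outward from them. They come from the RefSeq annotation of GRCm38.p6 and lie on the plus strand at chr19:46573183-46573364, with 72.0% G and C. Capitals mark each GGGCGG, the core of the binding sequence of Sp1-like factors, and each CCAAT, on either strand.

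Arl3 and Sfxn2: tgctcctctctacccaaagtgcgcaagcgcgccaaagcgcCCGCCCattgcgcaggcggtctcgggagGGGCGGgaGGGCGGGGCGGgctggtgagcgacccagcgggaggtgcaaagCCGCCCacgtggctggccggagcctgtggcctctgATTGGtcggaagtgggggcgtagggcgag

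GGGCGG occurred 5 times, 3 on the plus and 2 on the minus strand, with a pair of overlapping matches, and CCAAT occurred once, on the minus strand. Among 32851 windows of 182 bases at mouse gene starts, 30.3% held GGGCGG, 27.6% CCAAT, 9.01% TATAAA and 4.98% a p53 half-site, and neither TATAAA nor the half-site was present in these bases. The matches describe the sequence and say nothing about binding in these cells. Of the 40 called genes with 1 symbol, 28 had a start region in the sequence table.

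The question of p53 activity was addressed with a list of its known target genes, which did not hold the called gene Prkab1. None of 42 measured p53 targets was called in either direction by limma, and at an unadjusted p of 0.05 with a 2-fold difference 0 were higher and 1, Pltp, was lower (1.67% and 1.80% of all genes passed that rule in the respective directions). The median difference over the targets was -0.01, and 5 of them were higher and 9 lower without overlap between the genotypes, compared with 19.7% and 16.3% of all genes.

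Cdkn1a, which encodes the cell cycle inhibitor p21, was at 11.34 and 10.59 in p53+/- HSC and at 10.85 and 11.31 in p53+/m HSC. The arrays overlapped, and the difference of 0.11 had a 95% interval from -1.04 to 1.26, which includes a 2-fold change in either direction. Mdm2, both a target and the main inhibitor of p53, was measured more tightly, at 8.37 and 8.60 against 8.48 and 8.41, with a difference of -0.04 and an interval from -0.26 to 0.18. Ccng1, a cyclin induced by p53, was at 9.82 and 10.06 against 9.79 and 9.71, and its interval ran from -0.88 to 0.49.

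The targets that act in cell death were dim or variable. Bbc3 (Puma) was at 4.81 and 4.90 against 5.04 and 4.50, and Pmaip1 (Noxa) at 3.67 and 4.24 against 3.82 and 3.80, both with overlapping arrays. Perp, a membrane protein of the apoptotic response, was at 9.28 and 8.89 against 7.90 and 8.95. No separation was seen for these 3 genes, whose differences were -0.09, -0.14 and -0.66.

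Some targets were lower in p53+/m HSC without passing. Trp53inp1, a stress protein that cooperates with p53, was at 12.40 and 12.75 against 11.73 and 12.18 (difference -0.62, interval -1.39 to 0.15). Gadd45a, which acts in growth arrest and DNA repair, was at 7.43 and 7.06 against 6.56 and 6.51 (difference -0.71, interval -1.92 to 0.50). Neither pair of genotypes overlapped. Zmat3, an RNA-binding protein, was separated too but stayed under log2 4 on every array (difference -0.49), and Phlda3 and Sesn2 overlapped and stayed under log2 5 (differences -0.42 and 0.08). Bax, another classical target, was not measured by a probe set with a single gene name. Pltp, a phospholipid transfer protein, was at 6.47 and 7.65 against 5.66 and 4.73 (log2 difference -1.86, SE 0.50, adjusted p = 0.244 by limma), and the largest difference in the other direction was that of the excision repair nuclease Ercc5, at 6.02 and 6.15 against 7.47 and 7.24.

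Genes that sense DNA damage were examined next. None of 32 measured genes of the DNA damage response was called by limma, 4 were higher and 0 lower at an unadjusted p of 0.05 with a 2-fold difference, and 12 were higher and 3 lower without overlap. The median of this list was 0.16, next to 0.01 over all genes. By the unadjusted rule 1.67% of all genes were higher and 1.80% lower. In this list 29 genes averaged at least log2 5. Among all genes at that level 26.0% were higher and 28.7% lower without overlap. Atm, the kinase that signals double-strand breaks to p53, was at 6.15 and 5.23 in p53+/- HSC and at 7.50 and 7.44 in p53+/m HSC (log2 difference 1.78, SE 0.36, adjusted p = 0.129 by limma). The p53+/- arrays were below the WT range of 6.58 to 8.15 and the p53+/m arrays within it. The cohesin subunit Smc1a was at 11.41 and 11.33 against 12.31 and 12.43 (log2 difference 1.0, adjusted p = 0.0879 by limma), and it passed when the WT 12 mo arrays were left out (adjusted p = 0.0398). Its partner Smc3 was at 6.24 and 6.27 against 7.55 and 7.44, and the stress-induced Gadd45g at 8.15 and 7.41 against 8.88 and 9.46, both separated but not called.

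DNA repair and apoptosis genes gave fewer differences. Of 63 measured DNA repair genes none was called by limma, and at an unadjusted p of 0.05 with a 2-fold difference only Gtf2h4, a subunit of the repair and transcription factor TFIIH, was lower (7.38 and 7.93 against 6.69 and 5.86). Of 51 apoptosis genes none was called either, and Dffa, the inhibitor of the caspase-activated DNase, was the only one at that looser threshold (7.82 and 8.62 against 9.66 and 9.10). The medians of both lists were 0.01, as over all genes, of which 1.67% were higher and 1.80% lower at that looser threshold.

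**Figure D3:**
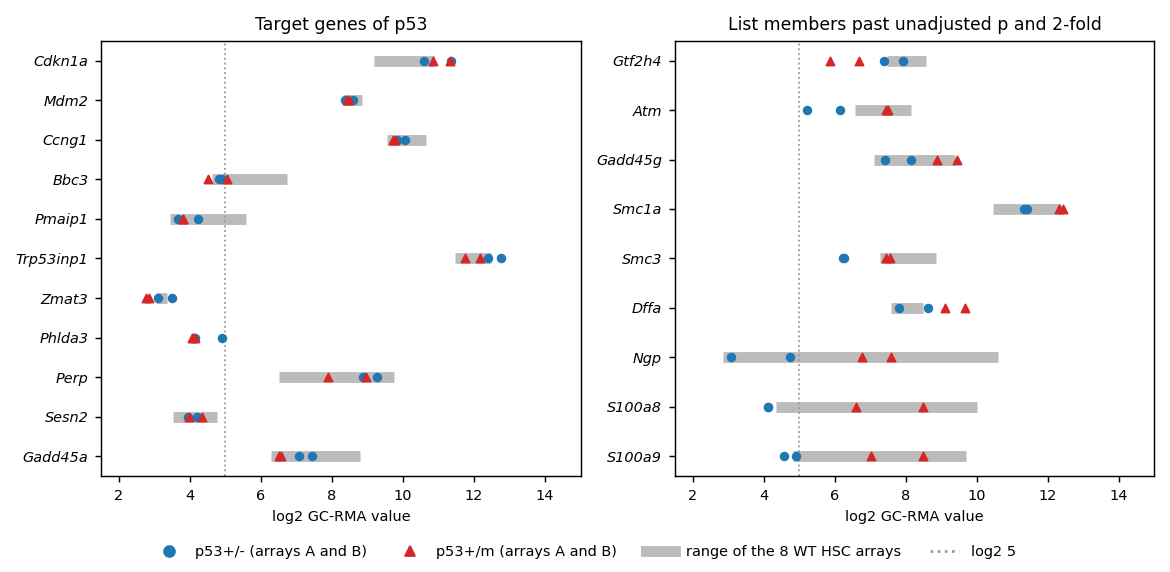
Log2 GC-RMA values of 11 p53 target genes (left) and of 9 genes from the DNA damage, DNA repair, apoptosis and neutrophil lists (right). Blue circles are p53+/- arrays, red triangles p53+/m arrays and grey bars the range of the 8 WT HSC arrays; Cdkn1a and Mdm2 overlap between the genotypes, while Atm, Ngp, S100a8 and S100a9 are separated with p53+/m higher.

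Among other pathways, only the ribosomal proteins and the small GTPases contributed further calls. Rps26 was the single call among 39 measured ribosomal proteins, at 12.76 and 12.37 in p53+/- HSC and at 13.82 and 13.66 in p53+/m HSC (2.26-fold, adjusted p = 0.0362 by limma), with p53+/- below the WT range of 13.41 to 13.70. Of these 39 genes, of which 38 averaged at least log2 5, 30 had a positive difference, 21 were higher and 6 lower without overlap, and the median was 0.21. Among all genes at that level 47.8% had a positive difference, and 26.0% were higher and 28.7% lower without overlap. A cross-hybridizing probe set for Rps9 differed by -3.96 (13.89 and 13.49 against 8.49 and 10.98) without passing, whereas the brightest Rps9 probe set, used in the list, differed by 0.23. Ribosomal protein transcripts often share sequence with pseudogene copies, so that individual values are uncertain.

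Arl3 was the single call among 60 small GTPase genes, of which 9 were higher and 23 lower without overlap, with a median of -0.18. Of these genes 45 averaged at least log2 5. Among all genes at that level 26.0% were higher and 28.7% lower without overlap. Arf4, a GTPase of the secretory pathway, was at 11.30 and 11.56 against 9.60 and 10.08 and passed when the WT 12 mo arrays were left out (adjusted p = 0.0315 by limma).

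Glycolysis and proteasome genes had medians below 0. For 27 glycolysis genes the median was -0.32. Of these, 5 were higher and 15 lower without overlap (26.0% and 28.7% of all genes at log2 5 or above). No glycolysis gene was called by limma (1 higher and 3 lower at an unadjusted p of 0.05 with a 2-fold difference). Pfkl, the liver form of phosphofructokinase, was at 8.47 and 8.34 against 6.02 and 5.53. Pkm, pyruvate kinase, was at 10.68 and 10.20 against 9.38 and 9.38, and Pdk1, which keeps pyruvate out of the mitochondria, at 11.06 and 10.96 against 9.38 and 9.95. These 3 genes passed when the WT 12 mo arrays were left out, with adjusted p-values of 0.0440, 0.0414 and 0.0447 by limma, when 0.347% of all genes were higher and 0.500% lower. For 34 proteasome genes the median was -0.25, with 7 higher and 16 lower without overlap and no call by limma. At an unadjusted p of 0.05 with a 2-fold difference, 0 proteasome genes were higher and 1 was lower.

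Isolated differences of at least 2-fold were seen in other lists. Mcm6, a subunit of the replicative helicase, was at 10.58 and 10.67 against 9.28 and 8.99, below the WT range of 10.46 to 11.23 in p53+/m HSC (adjusted p = 0.0580 by limma, and 0.0147 without the WT 12 mo arrays). Stard4, a cholesterol carrier, was at 9.73 and 9.38 against 11.04 and 11.12 (adjusted p = 0.0567 by limma, and 0.0440 without the WT 12 mo arrays). The co-chaperone Fkbp5 was at 8.88 and 9.18 against 7.65 and 7.63, and the inhibitory SMAD Smad7 at 9.96 and 9.71 against 8.55 and 8.75, and both of these also passed without the WT 12 mo arrays (adjusted p = 0.0121 and 0.0147). Stress-activated kinases, oxidative phosphorylation, chromatin, inflammatory and lymphocyte genes had no call by limma, with 2, 2, 2, 3 and 0 higher and 0, 1, 0, 1 and 2 lower at an unadjusted p of 0.05 with a 2-fold difference. These lists held 38, 59, 66, 55 and 33 measured genes, and by that rule 1.67% of all genes were higher and 1.80% lower.

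Markers of mature blood cells mostly stayed under log2 5 on all 4 arrays, but several read higher on the p53+/m arrays. Of 13 neutrophil markers 12 had a positive difference, and 8 were higher and 0 lower without overlap. Of 14 monocyte and macrophage markers 11 were positive, with 5 higher and 1 lower without overlap. Over all genes 62.9% had a positive difference, and 19.7% were higher and 16.3% lower without overlap. Only 4 of the neutrophil markers averaged at least log2 5, and several positive differences were near 0, such as 0.01 for Elane and 0.02 for Mmp9. The neutrophil granule protein gene Ngp was at 4.74 and 3.07 in p53+/- HSC and at 6.76 and 7.60 in p53+/m HSC. S100a8 was at 4.12 and 4.13 against 6.59 and 8.47, and its partner S100a9 at 4.56 and 4.91 against 7.02 and 8.48. None of these passed (adjusted p between 0.272 and 0.362 by limma), and the WT HSC arrays covered a wider range, for S100a8 from 4.35 to 10.02. Of the 13 neutrophil markers, 1 reached log2 5 on each p53+/- array, 4 and 5 on the p53+/m arrays and 12 on each array of WBM. Elane, Mpo, Ctsg and Mmp8 were under log2 3 on all 4 arrays, whereas Prtn3 was at 8.92 and 8.16 against 6.63 and 8.86. Of 16 B lineage markers, 3 and 3 reached log2 5 in p53+/- HSC, 2 and 4 in p53+/m HSC and 13 in WBM, and of 13 erythroid markers 3 and 2 in p53+/- HSC, 3 and 3 in p53+/m HSC and 12 in WBM. The part of carried-over mature cells in the differences between genotypes was not tested, and in such bulk samples a change in the share of cells of a type cannot be told apart from a change in RNA per cell.

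Among the largest differences that did not pass, chosen after their values were seen, several also belong to other cells or states. Igha, the constant region of immunoglobulin A, was at 3.26 and 3.07 in p53+/- HSC and at 9.01 and 10.36 in p53+/m HSC. WT HSC arrays ranged from 2.92 to 9.03 for this probe set and WBM read 11.90 and 12.03, so that the gene varied among WT pools as well (log2 difference 6.52, SE 1.67, adjusted p = 0.218 by limma). Further probe sets for Igha were also higher, by 6.23 and 3.13 on the log2 scale, without passing. Other genes of antibody-secreting cells were not all higher. A probe set for the immunoglobulin gene Igkv8-30 was higher in p53+/m HSC, at 6.82 and 4.09 against 7.80 and 8.51, without passing. The joining chain gene Jchain overlapped between genotypes, at 5.21 and 1.21 against 4.52 and 7.71. A probe set for Ighm, the heavy chain of IgM, read 7.27 on p53+/- A and between 1.43 and 1.56 on the other 3 arrays. All 4 probe sets for Xbp1, a transcription factor of plasma cells, were lower in p53+/m HSC, by -0.35 to -1.29 on the log2 scale. The brightest of them read 12.23 and 12.21 against 11.55 and 12.18. In WBM this probe set read only 11.22 and 11.38, so it cannot show the share of plasma cells here. Mt1, a metallothionein induced by metals and stress, was at 4.39 and 3.0 against 8.29 and 8.93 (adjusted p = 0.110 by limma). H3c4, a replication-dependent histone gene, was at 2.08 and 2.07 against 7.92 and 7.36, with both p53+/m arrays above the WT range of 2.30 to 5.97 (log2 difference 5.57, SE 0.85, adjusted p = 0.0591 by limma). Bmp4, a secreted growth factor, was at 5.72 and 4.09 against 7.97 and 8.62, above the WT range of 3.59 to 6.28 (adjusted p = 0.0850 by limma). Gdpd3 owed its difference of 3.58 to array p53+/m B alone, which read 8.89, while the other 3 arrays lay between 1.75 and 1.78.

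Some HSC and megakaryocyte markers were separated as well. Of 29 HSC markers 6 were higher and 9 lower without overlap, and of 13 megakaryocyte and platelet markers 4 were higher and 2 lower. Over all genes the shares were 19.7% and 16.3%, and over genes at log2 5 or above 26.0% and 28.7%. Cd34, a surface sialomucin, was at 10.58 and 11.48 in p53+/- HSC and at 9.56 and 9.08 in p53+/m HSC. Tal1, a transcription factor of early blood cells, was at 10.56 and 9.96 against 11.49 and 11.70, and Gata2 at 9.23 and 9.23 against 10.12 and 10.18. Fli1 was at 7.52 and 7.88 against 6.13 and 5.97, below the WT range of 7.15 to 8.31 in p53+/m HSC. The megakaryocyte markers Vwf, at 10.52 and 8.78 against 10.97 and 11.90, and Itga2b, at 6.00 and 6.20 against 6.46 and 7.25, went the other way. None of these genes was called (adjusted p = 0.474 for Cd34, 0.139 for Tal1 and 0.0979 for Fli1 by limma).

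The genes next to Trp53 on chromosome 11 were measured because the m allele arose from a deletion that took the 5′ part of Trp53 and sequence upstream of it, whose extent is not given in the sources used here. In gene order, 25 measured genes on each side were taken. Of the 25 genes before Trp53, 10 averaged at least log2 5, of which 7 were lower in p53+/m HSC, 5 of them without overlap and 0 higher without overlap, and the median difference was -0.36. Of the 25 genes after Trp53, 14 reached that level, 8 were lower, 5 were lower and 5 higher without overlap, and the median was -0.04. Over all 5995 genes at this level 28.7% were lower and 26.0% higher without overlap.

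None of the neighbours passed adjustment by limma. At an unadjusted p of 0.05 without a fold requirement, 3 of 25 genes before Trp53 were lower and 1 of 25 after it higher. By this rule 4.91% of all genes were lower and 5.04% higher. Vamp2, a synaptobrevin of secretory vesicles, was at 8.98 and 8.10 in p53+/- HSC and at 7.16 and 7.21 in p53+/m HSC, below the WT range of 8.09 to 9.20 (log2 difference -1.36, SE 0.26, adjusted p = 0.105 by limma). Ctc1, which protects telomeres, was at 7.34 and 6.51 against 5.13 and 5.28 (log2 difference -1.72, SE 0.39, adjusted p = 0.163 by limma), with 1 of the p53+/m arrays inside the WT range of 5.18 to 7.61. The clock gene Per1 was at 9.09 and 8.81 against 8.29 and 8.14 (log2 difference -0.73, adjusted p = 0.387 by limma). Against the WT HSC arrays, 4 of the 10 genes before Trp53 (Vamp2, Trappc1, Cyb5d1 and Naa38) were below the range on both p53+/m arrays and 1 (Ndel1) was above it, and no gene was outside it on both p53+/- arrays. After Trp53 none of 14 was outside on both p53+/m arrays, and over all genes 9.34% were below and 5.87% above. The part of the deletion in these differences was not tested. Without p53+/- B the median before Trp53 was -0.66. Without p53+/- A, Ctc1, Vamp2, Cyb5d1, Trappc1, Per1 and Rnf227 before Trp53 differed by -1.31, -0.92, -0.87, -0.74, -0.59 and -0.01. In that setting Ndel1, Naa38, Stx8 and Cntrob differed by 0.98, 0.78, 0.26 and 0.09. The median after Trp53 was 0.08 without p53+/- A.

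**Figure D4:**
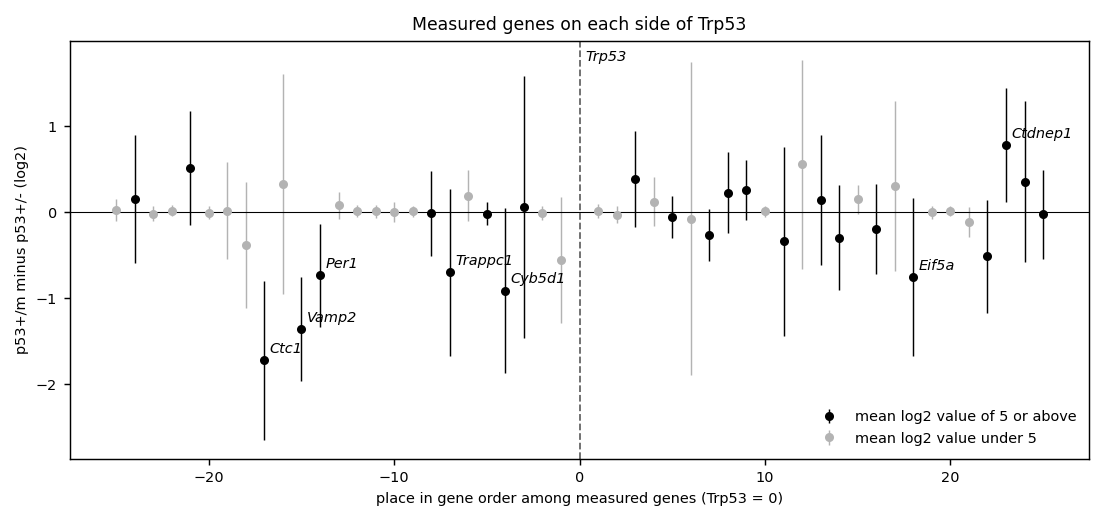
Difference between genotypes (p53+/m minus p53+/-, log2) with its 95% interval for 25 measured genes on each side of Trp53, placed by gene order along chromosome 11. Genes with a mean of at least log2 5 are black and dimmer genes grey; Ctc1, Vamp2 and Per1 lie below 0 before Trp53.

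To place the genotypes on the time course of ageing, genes that changed with age in WT HSC were taken from the WT arrays alone. Of 178 genes that rose between 2 and 21 mo, 105 were higher in p53+/m than in p53+/- HSC, with a median difference of 0.07, and of 246 that fell, 122 were higher, with a median of -0.01. These values depended on the WT 12 mo arrays, which entered this choice of genes. By its rising genes WT 12 mo array A stood at 66.4% and array B at 40.2% of the span from 2 to 21 mo. With genes chosen from the 2 and 21 mo arrays only, A and B stood at 87.7% and 11.1% by rising genes. By falling genes of that choice they stood at 82.7% and 22.8%. When the genes were chosen from the 2 and 21 mo arrays only, the median was -0.20 for 558 rising genes and 0.18 for 606 falling genes, and without the WT 12 mo arrays it was -0.17 for 572 and 0.17 for 680. In the latter choices the differences thus ran toward the young pattern in p53+/m HSC for both sets.

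Each array was also placed on that span, where 0% is the WT level at 2 mo and 100% that at 21 mo. By rising genes the p53+/- arrays stood at 39.1% and 41.4% and the p53+/m arrays at 37.1% and 49.0%, and by falling genes at 46.3% and 62.0% against 48.1% and 57.5%. With genes chosen from the 2 and 21 mo arrays, the places by rising genes were 41.3% and 59.1% for p53+/- and 31.5% and 43.7% for p53+/m. By falling genes they were 51.3% and 71.0% against 43.7% and 53.5%. The genotypes overlapped under each of these choices, so that a difference in place was not separable from the spread between 2 arrays.

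**Figure D5:**
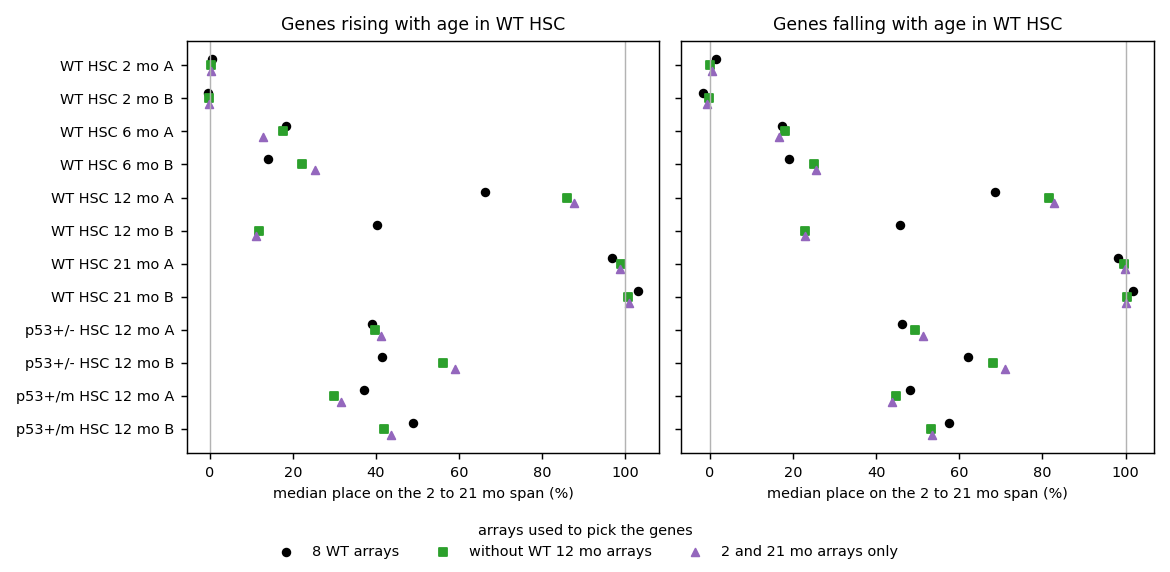
Median place of each of the 12 HSC arrays (rows) on the span from 2 mo (0%) to 21 mo (100%) of WT HSC. Genes rising with age are on the left and genes falling with age on the right, under 3 ways of choosing the genes. Black circles stand for genes chosen from the 8 WT arrays and green squares for genes chosen without the WT 12 mo arrays. Purple triangles stand for genes chosen from the 2 and 21 mo arrays only. The p53+/- and p53+/m arrays overlap under each choice.

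The same question was asked gene by gene, by reading from each WT trend the age at which WT HSC reach the mean level of a genotype. For 2064 genes whose trend explained at least 0.5 of the variance, the median age read this way was 11.8 mo for p53+/- and 10.05 mo for p53+/m HSC. The age was younger in p53+/m HSC for 1160 genes, older for 747 and equal for 157, with a median difference of -1.1 mo, and without the WT 12 mo arrays for 1326, 665 and 329 of 2320 genes, with a median of -1 mo. Genes of the same 4 arrays are not independent replicates, and no test was made of these counts. Among 10 p53 targets with such a trend 8 were younger and 0 older, with a median of -2.7 mo. Without the WT 12 mo arrays 10 of 12 targets were younger and 0 older, with a median of -2.5 mo.

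Single genes known for their change with age in these WT cells gave the following values. Selp, the adhesion molecule P-selectin, was at 8.89 and 8.93 in p53+/- HSC and at 9.40 and 11.25 in p53+/m HSC. Ptgs2, the cyclooxygenase of inflammation, was at 8.76 and 7.44 against 9.25 and 9.67, and Icam1, an adhesion molecule, at 12.55 and 11.81 against 11.49 and 11.57. All 3 were separated by genotype, Selp and Ptgs2 higher and Icam1 lower in p53+/m HSC, and none passed by limma (adjusted p = 0.639, 0.777 and 0.496).

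Of the genes for chromatin and signalling, Sirt7 was at 8.70 and 7.70 against 8.95 and 8.76, Smad4 at 11.30 and 11.47 against 12.19 and 11.70, and Hdac6 at 6.52 and 6.67 against 7.63 and 7.0. Dnmt3b, a de novo DNA methyltransferase, was at 10.12 and 9.36 against 10.99 and 10.42. All were higher on both p53+/m arrays than on either p53+/- array, by 0.65, 0.56, 0.72 and 0.96 on the log2 scale, and none passed. For these 4 genes, the only ones of the 9 named for age with a WT trend of that strength, the trends placed p53+/- HSC at 13.6, 16.8, 12.9 and 15 mo and p53+/m HSC at 5.4, 9.1, 6.1 and 6.5 mo. Clu, at 12.1 and 10.4 mo, App, at 15 and 12.8 mo, and Ctsb, at 17.5 and 13.2 mo, were also placed younger in p53+/m HSC. The opposite was seen for Tlr4, placed at 2 mo, the youngest WT age, and 11.6 mo, Ctsc, at 10 and 12.6 mo, and Hspa5, at 17.3 and 19 mo. These further genes were picked after their values were seen. Ctnnb1 and Dnaja2 differed by 0.20 and -0.49, the latter with an interval from -3.65 to 2.67.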

How the data were processed

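Images of the Affymetrix MOE430A arrays were processed by MAS 5.0 and GC-RMA, and the authors deposited the resulting log2 values, which were used as given. Neither the GCRMA version nor a joint normalization of the arrays is stated in the sources used here. The 2 arrays per genotype limit the precision, and p-values measure the spread between arrays of pooled mice.

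Group means over the 12 HSC arrays (6 groups) were fitted with limma 3.58.1 in R 4.3.3, without 64 control probe sets, and p53+/m minus p53+/- was tested with 6.88 degrees of freedom and Benjamini-Hochberg adjustment over 22626 probe sets. Calls needed an adjusted p under 0.05 and a 2-fold difference. The script was checked on simulated data. The probe table, updated to RefSeq symbols, gave 1 symbol for 20380 probe sets, several for 691 and none for 1555. For each listed gene the probe set with the brightest average on the 4 p53 arrays was used.

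The genes named are the 12 largest calls in each direction with 1 symbol, no overlap and a higher group mean of at least log2 5, 12 p53 targets and 9 age genes fixed by name, calls in 34 gene lists, neighbours of Trp53 and, beyond this rule, list members chosen for their values. The comparison and lists were chosen with earlier results of these data known, and 25 listed age genes come from the study itself, so no list is independent support. Alternatives left out arrays, used the letter A or B as a block, or changed normalization, filter, floor, variance model or threshold.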

Additional observations from a re-analysis of the deposited data

How the results depend on the processing

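The 12-array fit called 19 probe sets higher and 25 lower in p53+/m HSC, and leaving out 1 p53 array gave between 11 and 51 higher and between 22 and 47 lower. By limma 0 were called in either direction from the 4 p53 arrays alone or from the 6 arrays of 12-mo-old mice. At an unadjusted p of 0.05 with a 2-fold difference, the 4 arrays gave 423 and 427 and the 6 arrays 284 and 261. Without the WT 12 mo arrays 81 and 103 were called, among them all 19 and 25, and a fit with fewer probe sets, those at log2 5 or above on at least 2 of the 4 arrays, called 34 higher. Raising values under log2 5 to 5 left 1 and 1, and a trended, robust variance left 10 lower. With a 2-fold difference, an unadjusted p of 0.05 gave 385 and 401 and an adjusted p under 0.10 gave 57 and 70. Dropping the fold requirement at an adjusted p under 0.05 gave 43 higher. Quantile normalization gave 18 and 23. The cause of these shifts was not tested beyond the fewer arrays or probe sets that the settings hold.

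The deviations of A from B correlated at -0.0453 between the genotypes over probe sets. With the p53+/- pair, those of the WT 6 mo and WT 12 mo pairs correlated at 0.163 and -0.191. With 1 such deviation per group, these values cannot show whether the letters stand for shared handling of the arrays. With the letter as a replicate block, 5 higher and 11 lower were called in the 12-array fit. With this block the fit of the 4 p53 arrays called 0 and 0 by limma. At an unadjusted p of 0.05 with a 2-fold difference the latter fit gave 502 and 518.

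Of the results for named genes under alternatives, 394 kept their direction and side of the threshold, 188 kept their direction but no longer passed, 1 newly passed (Sirt7) and 9 changed direction, all of them of 5 p53 targets that were not called. With 1 array left out, Cdkn1a ranged from -0.26 to 0.49, Mdm2 from -0.16 to 0.076, Bbc3 from -0.36 to 0.18, Pmaip1 from -0.43 to 0.14 and Sesn2 from -0.10 to 0.26. Mdm2 was at 0.024 after quantile normalization and Bbc3 at 0.019 with values raised to 5, and the cause was not tested. The median of genes rising with age moved from 0.07 to -0.20 with the 2 and 21 mo arrays only and to -0.17 without the WT 12 mo arrays, and that of falling genes from -0.01 to 0.18 and 0.17.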
